A study of Mus musculus with 6 samples.

Results

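Chromatin accessibility at the proteasome genes was examined in nuclei of mouse muscle fibres, with and without knockdown of Yap, the coactivator at the end of the Hippo pathway. The genes were all those whose symbol is Psma, Psmb, Psmc, Psmd, Psme, Psmf or Psmg followed by a number, which name the subunits of the 26S proteasome and its activators, inhibitor and assembly factors. The annotation holds 49 such genes, and 46 of them had a row in the deposited table of 49366 promoter windows. The rule used names alone and no measured value. Psmc5, Psmd10 and Psmg2 had no row and are described by their peaks. Each symbol was checked against the gene identifier and the annotation, and all 49366 window names matched.

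In ATAC-seq, the assay used, a transposase inserts sequencing adapters where chromatin is open. Nuclei carrying the perinuclear protein PCM1, which marks muscle fibre nuclei, had been sorted from skeletal muscle of C57BL/6J males. The series' own design note speaks of cardiomyocytes, but each sample is labelled as skeletal muscle. The mice were 8 weeks old at injection, and the muscles were taken 28 days later. AAV6:Yap-shRNA was given to the gastrocnemius and tibialis anterior muscles of one side and AAV6:LacZ-shRNA, a hairpin against a bacterial gene, to the other side, so both groups carried a vector and a hairpin. Each of the 3 LacZ-shRNA and 3 Yap-shRNA samples pooled 4 gastrocnemius and 4 tibialis anterior muscles. Nothing in the labels ties a sample to its animals, so a p-value measures the spread between pools.

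Library totals ran from 3326803 to 10319467 counts in windows and from 2588520 to 6871176 in peaks, with LacZ-shRNA replicate 2 the shallowest in both. The windows of olfactory receptor genes (Olfr), which are closed in muscle, held a median of 4.25 CPM (counts scaled by library size) per kb of window in LacZ-shRNA replicate 1 and 2.72 to 3.13 in the other 5 libraries, so that library stood apart in its background. The muscle fibre markers had a median of 16.4 CPM per kb, led by creatine kinase Ckm at 41.04, while Myh1 was lowest at 4.10. A window was open to counts from every annotated start of its gene, 1 kb to each side. In bulk nuclei a smaller share of open nuclei and weaker opening per nucleus cannot be told apart.

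The 26S proteasome degrades proteins tagged with ubiquitin and does much of the protein breakdown in muscle. Its 20S core is a stack of rings: outer rings of alpha subunits (Psma) gate entry, and inner rings of beta subunits (Psmb) hold the proteolytic sites, which lie in Psmb5, Psmb6 and Psmb7. A 19S cap of ATPases (Psmc) and non-ATPase subunits (Psmd) binds, unfolds and feeds in the substrate. Interferon induces Psmb8, Psmb9 and Psmb10, which take the places of Psmb5, Psmb6 and Psmb7 in the immunoproteasome and favour peptides for antigen presentation. Nfe2l1 is known to drive the constitutive subunit genes together through antioxidant response elements when proteasome activity falls.

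The promoters of 4 catalytic subunit genes and of Psmb10 are shown because the later comparison of constitutive with immunoproteasome subunits turns on them. They come from RefSeq on GRCm38.p6, run 5′ to 3′ on the strand of the gene, and hold 250 bases before the start and 50 from it. Capitals mark exact matches, on either strand, to a panel of 10 motifs. The promoter elements searched were the NRF1 site CGCATGCG, the ETS site spelled CCGGAAG, the SP1 site spelled GGGCGG, the CCAAT box by its own 5 letters and the TATA box as TATAAA. The stress and interferon elements were the antioxidant response element TGACNNNGC, the interferon-stimulated response element (ISRE) GAAANNGAA, the gamma-activated site TTCNNNGAA and the NF-kB site GGGANTTTC. For TEAD, the partner of Yap, it was GGAATG. In these 5 no match overlaps another. The positions are chr14:54617946-54618245 for Psmb5, chr11:70525107-70525406 for Psmb6, chr17:34197945-34198244 for Psmb8, chr17:34187281-34187580 for Psmb9 and chr8:105938343-105938642 for Psmb10.
Psmb5: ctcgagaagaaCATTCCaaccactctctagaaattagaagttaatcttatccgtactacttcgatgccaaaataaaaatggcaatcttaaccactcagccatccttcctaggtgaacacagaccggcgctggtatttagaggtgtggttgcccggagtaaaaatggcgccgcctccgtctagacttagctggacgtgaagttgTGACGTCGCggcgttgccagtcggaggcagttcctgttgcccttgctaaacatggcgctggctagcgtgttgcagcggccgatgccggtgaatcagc
Psmb6: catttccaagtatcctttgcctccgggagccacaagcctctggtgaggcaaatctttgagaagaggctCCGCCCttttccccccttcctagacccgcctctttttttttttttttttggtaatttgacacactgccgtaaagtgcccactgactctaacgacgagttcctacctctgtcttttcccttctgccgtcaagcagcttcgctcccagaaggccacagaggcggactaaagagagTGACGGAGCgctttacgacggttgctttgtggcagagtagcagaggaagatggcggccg
Psmb8: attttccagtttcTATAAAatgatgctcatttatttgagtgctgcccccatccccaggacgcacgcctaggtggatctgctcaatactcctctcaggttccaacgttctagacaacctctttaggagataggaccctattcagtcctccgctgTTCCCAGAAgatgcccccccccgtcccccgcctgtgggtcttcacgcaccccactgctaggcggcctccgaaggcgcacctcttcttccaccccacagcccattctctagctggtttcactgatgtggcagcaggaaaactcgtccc
Psmb9: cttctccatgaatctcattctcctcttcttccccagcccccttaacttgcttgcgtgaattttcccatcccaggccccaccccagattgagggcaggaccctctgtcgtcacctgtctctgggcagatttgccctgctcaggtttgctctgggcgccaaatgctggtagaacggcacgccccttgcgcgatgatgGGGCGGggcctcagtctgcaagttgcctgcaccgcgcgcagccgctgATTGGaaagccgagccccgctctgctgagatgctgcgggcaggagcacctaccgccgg
Psmb10: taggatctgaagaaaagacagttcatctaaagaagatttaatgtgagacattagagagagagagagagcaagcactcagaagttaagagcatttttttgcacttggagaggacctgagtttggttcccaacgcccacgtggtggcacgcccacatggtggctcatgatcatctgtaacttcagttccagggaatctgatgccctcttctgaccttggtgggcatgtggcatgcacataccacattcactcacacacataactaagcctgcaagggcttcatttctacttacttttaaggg

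Psmb5 and Psmb6 each hold an antioxidant response element, beginning 47 and 9 bases before the start, which 13.99% of all 27025 genes in the promoter table also hold. Psmb8 holds a gamma-activated site beginning 97 bases before its start (9.55% of all genes) and a TATA box match farther up. Psmb9 holds an SP1 match and a CCAAT box read on the other strand. Psmb10 holds none of the 10 in this window. A match is a string of letters and does not show that a factor binds.

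The Psmb10 window was covered by a peak of accessibility, but the peak did not touch the RefSeq promoter. It lay at chr8:105936573-105937618, 826 bp from the 5′ end of the gene and over other annotated transcript starts inside it. The middle 300 bases of that peak are shown to set beside the promoter, with the same marks.
Psmb10 peak centre: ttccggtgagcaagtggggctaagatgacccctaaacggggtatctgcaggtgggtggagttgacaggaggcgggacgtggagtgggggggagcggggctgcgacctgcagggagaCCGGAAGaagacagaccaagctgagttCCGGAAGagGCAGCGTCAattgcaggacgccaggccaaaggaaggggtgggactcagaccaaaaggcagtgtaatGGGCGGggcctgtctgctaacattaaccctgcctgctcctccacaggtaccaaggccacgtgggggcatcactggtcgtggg

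This stretch (chr8:105936946-105937245) holds 2 ETS matches, 1 SP1 match and 1 antioxidant response element. The peak and the RefSeq start of Psmb10 therefore hold different motif letters.

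RefSeq promoters were found for 41 of the 49 genes. An ETS match was held by 14 of them (34.1%), against 9.93% of all genes in the table, and an SP1 match by 23 (56.1% against 38.2%). Among the 25 constitutive subunits of the 26S particle with an entry, 10 (40.0%) held an ETS match and 4 (16.0%) an antioxidant response element. Their median ratio of observed to expected CpG was 0.80, against 0.38 for all promoters. The 3 immunoproteasome promoters had a median of 0.52.

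The same letters were counted in the 300 bases at the centre of each peak, against 11297 promoter peaks of protein-coding genes. An antioxidant response element was held by 16 of 46 proteasome peak centres (34.8%), against 14.5% of all. Of the 33 peaks of constitutive subunits, 13 (39.4%) held one, spread over the alpha ring, the beta ring, the ATPases and the lid and base. Psmd1, a scaffold subunit of the 19S base, held 3. ETS matches were at 21.7% against 14.5%, and SP1 matches at 60.9% against 62.5%. The median ratio of observed to expected CpG was 0.79 in the constitutive peak centres and 0.82 in all promoter peak centres. The higher CpG ratio at RefSeq starts was thus not seen against open promoters. At the RefSeq start the antioxidant response element was held by 14.6% of the 41 genes. In the 37 genes with both a RefSeq promoter and a peak, 6 held it at the RefSeq start (16.2%) and 11 at a peak centre (29.7%), and 5 of the 7 genes with a peak alone held it there. These shares are descriptions without a test.

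The constitutive subunits had open promoters. Each of their 30 windows held at least 1 called peak (100%), as did 41 of all 46 windows (89.1%), against 51.8% of 20540 protein-coding windows, 91.7% of 72 cytosolic ribosomal protein genes and 0.859% of 1397 Olfr windows. The median constitutive window held 7.91 CPM per kb, and the range was 0.540 to 20.8. The protein-coding median was 5.71 and the Olfr median 3.13. Of the 19 constitutive windows that overlap no window of another gene, 19 lay above the Olfr median of the same library in all 6 libraries, and their median was 10.3 CPM per kb.

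The alpha ring, which gates the core, spanned the widest range. Psma1 was its highest window, with 14.6, 18.2 and 17.3 CPM per kb in LacZ-shRNA replicates 1 to 3 and 14.8, 14.5 and 14.6 in Yap-shRNA. Psma4 was the lowest of all, with 0.469, 0.277 and 0.394 in LacZ-shRNA and 0.484, 0.764 and 0.851 in Yap-shRNA. Psma4 thus fell far under the closed Olfr windows although a peak lies over its start.

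In the beta ring, the non-catalytic Psmb3 was the highest of the 46 genes, with 17.4, 21.3 and 23.7 CPM per kb in the LacZ-shRNA libraries and 19.9, 21.4 and 20.9 in those of Yap-shRNA. It also carried a pair of broad peaks, one of 2093 bp over its 5′ end and one of 2519 bp starting 8433 bp into the gene. Psmb1, which shares 34.2% of its window with Tbp, was the lowest of this class at 5.24, 9.28 and 6.89 against 7.13, 6.21 and 6.61. The groups overlapped for both.

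The ATPases that unfold the substrate ran from Psmc2 to Psmc4. Psmc4 held 9.41, 10.8 and 11.1 CPM per kb in the LacZ-shRNA libraries and 11.3, 10.7 and 10.3 in those of Yap-shRNA. Psmc2, which shares 49.2% of its window with Dnajc2, held 1.67, 2.16 and 1.42 against 1.37, 1.61 and 1.77. In the lid and base, Psmd12 was highest with 14.3, 16.5 and 18.6 against 16.97, 16.9 and 15.9. Psmd13 was lowest with 2.20, 2.99 and 2.34 against 2.28, 2.55 and 2.47, and 51.3% of its window is shared with Sirt3 and Gm15542. The lowest gene of each of these classes was one whose window is shared.

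The factors that build or tune the particle lay in the same range. Psmg4, which helps assemble the alpha ring, held 14.8, 11.7 and 17.1 CPM per kb in the LacZ-shRNA libraries and 13.9, 13.8 and 14.9 in those of Yap-shRNA, while Psmg3, its partner in that step, held 1.33, 1.57 and 1.12 against 1.10, 1.504 and 1.08. Psmg3 shares 76.6% of its window with Gm26938. The base assembly chaperones Psmd9 and Psmd5 held 6.03, 9.66 and 7.69 against 8.28, 7.66 and 9.46, and 4.62, 5.41 and 5.87 against 6.04, 5.64 and 5.73. Psmf1, the inhibitor PI31, held 6.02, 6.63 and 5.95 against 5.35, 5.68 and 6.31. For each of these the groups overlapped.

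Psme1 and Psme2 form the 11S activator, which interferon also induces. Psme1 held 6.80, 10.04 and 9.92 CPM per kb in the LacZ-shRNA libraries and 8.63, 10.3 and 10.3 in those of Yap-shRNA. Psme2 held 3.89, 3.77 and 4.83 against 4.83, 4.65 and 4.86. It shares 31.2% of its window with Rnf31, and the window held 969 counts where its peak held 3125. Per kb of peak Psme2 held 40.7 CPM, at percentile 91.0 of promoter peaks, so its low window level is uncertain. Psme2b, a single-start copy of Psme2 on another chromosome, held 4.79, 4.00 and 4.16 against 4.12, 4.79 and 3.65. Reads of Psme2 and Psme2b may not be told apart where their sequences match.

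**Figure D1:**
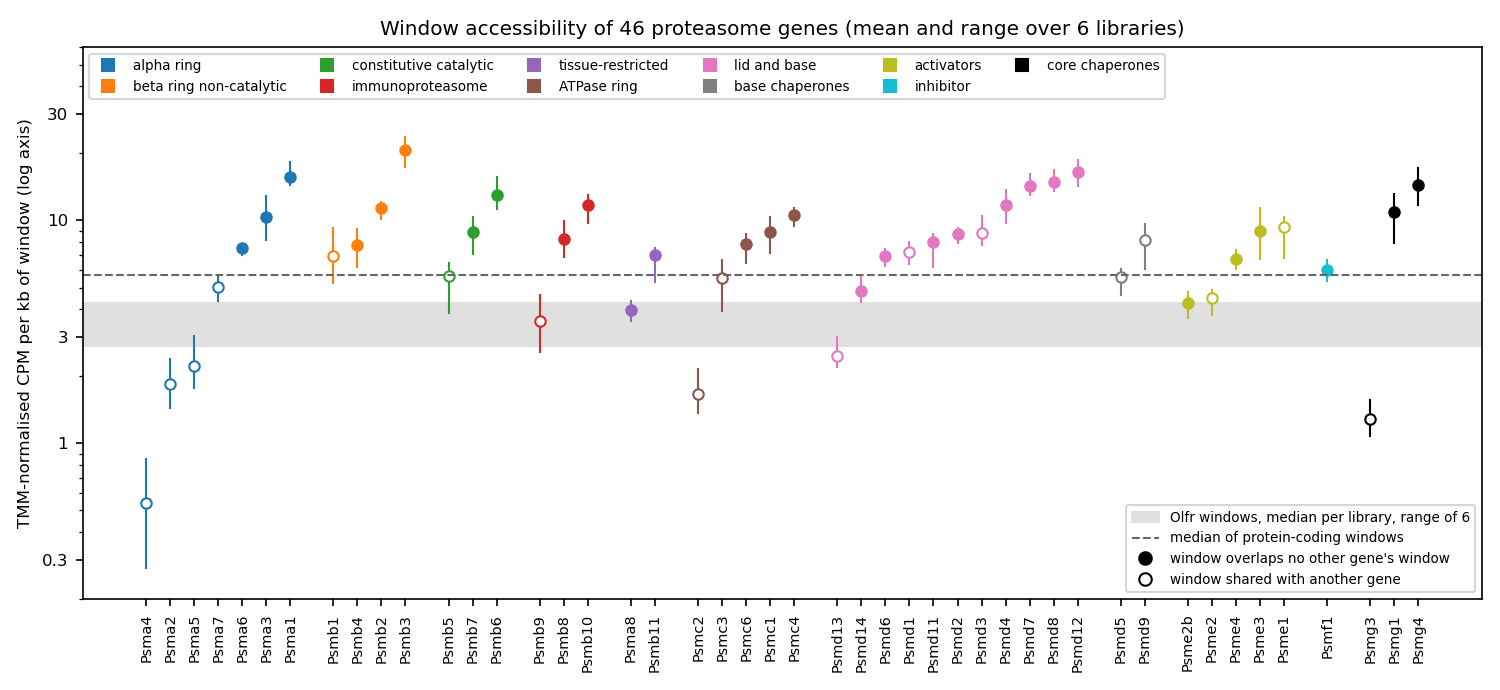
Mean TMM-normalised CPM per kb of window (log axis) for each of the 46 proteasome genes, grouped by role, with bars for the range over the 6 libraries and open circles for windows shared with another gene. The constitutive windows span 0.540 (Psma4) to 20.8 (Psmb3), and the windows under the grey Olfr band are all shared ones.

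In 5 of the windows there was no peak. Psma8 and Psmb11 are tissue-restricted: Psma8 replaces Psma7 in the testis, and Psmb11 is the catalytic subunit of thymic cortical epithelium. Psma8 held 3.59, 3.93 and 4.33 CPM per kb in the LacZ-shRNA libraries and 4.12, 4.27 and 3.55 in those of Yap-shRNA, near the Olfr median of 3.13. Psmb11 held 5.29, 7.53 and 7.46 against 6.92, 7.26 and 7.38, above the protein-coding median in 5 of 6 libraries, and the nearest peak, 3100 bp away, is that of its neighbour Psmb5. The others were Psmb8, Psme1 and Psme2b. The nearest peak to a Psme1 start lay 1099 bp away, just outside the reach of the window.

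Many windows that share sequence with another gene's window held fewer counts than the peak inside them. Psma4, with 86.4% of its window shared with AY074887, held 63 counts over the 6 libraries, while its promoter peak held 1205. Psmg3 held 119 against 634 and Psma2, beside Mrpl32, 347 against 1068. Among 25 windows alone in their region the ratio of window to peak counts had a median of 1.83 (0.856 to 5.86). Among 16 shared windows it was 0.811 (0.0523 to 4.69), and 10 of them were below 1.

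**Figure D2:**
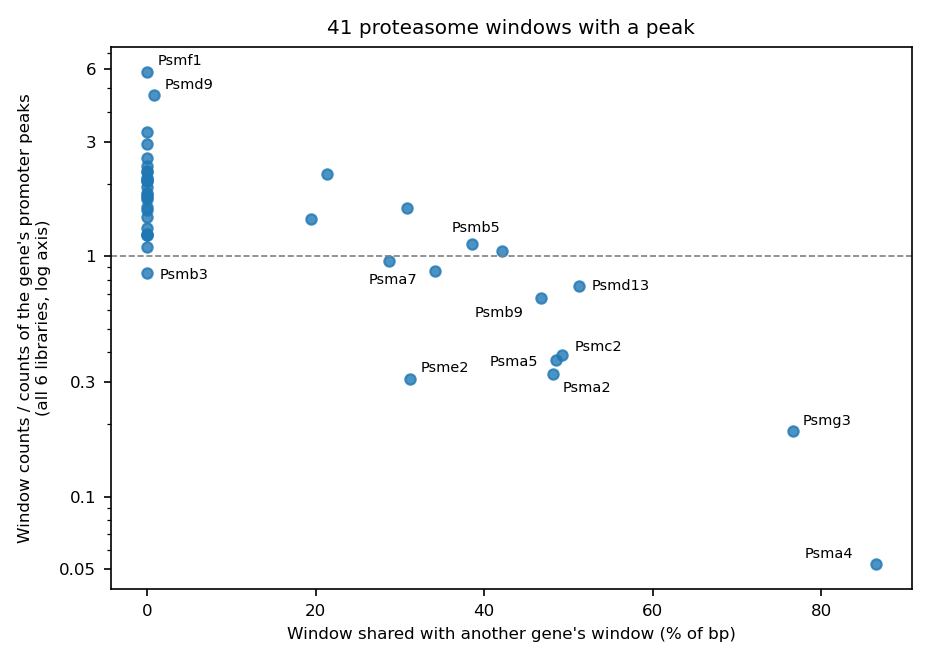
Ratio of window counts to the counts of the gene's promoter peaks, summed over 6 libraries (log axis), against the share of the window that lies in another gene's window, for the 41 proteasome genes with a peak. Psma4, with 86.4% shared, sits at 0.0523, and all but 1 of the unshared windows lie above 1.

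The same held for the missing genes. Psmc5, Psmd10 and Psmg2 share 96.3%, 89.3% and 86.5% of their windows with Ftsj3, Atg4a and Cep76, and had no row, yet their promoter peaks held 1028, 588 and 880 counts. The low window levels of Psma2, Psma4, Psma5, Psmb9, Psmc2, Psmd13, Psme2 and Psmg3 are therefore uncertain as measures of their promoters. Peaks are given beside windows in what follows. Per kb of peak, Psma4 held 32.9 CPM, at percentile 76.7 of 11306 promoter peaks, and the alpha ring peaks ran only from 28.6 to 32.9.

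In all, 46 peaks lay in the reach of 44 proteasome genes. Their width ran from 500 bp (Psmf1) to 3635 bp (Psmd8), with a median of 1079 bp against 1175 bp for all promoter peaks. Their median level was 28.2 CPM per kb of peak, against 25.9. Psmd12, at 44.2, was the most open per kb. Of the 46, 39 lay over the 5′ end of the gene. The peak of Psmd9 was 58378 bp from it and that of Psma6 14062 bp, each over another annotated start at which RefSeq gives a promoter. For Psma6 RefSeq also gives a promoter at the 5′ end, where no peak was called.

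The windows of the immunoproteasome genes lay above those of the subunits they replace in 2 pairs and below in the other. Psmb8, which replaces Psmb5, held 6.87, 8.02 and 7.49 CPM per kb in the LacZ-shRNA libraries and 7.73, 9.63 and 9.95 in those of Yap-shRNA. Psmb5 held 3.86, 6.04 and 6.44 against 5.96, 5.36 and 6.27. In every library Psmb8 was higher, by a mean log2 ratio of 0.56 ± 0.26 (SD, n = 6 libraries).

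Psmb9, which replaces Psmb6, held 2.56, 3.18 and 3.54 CPM per kb in the LacZ-shRNA libraries and 3.47, 3.82 and 4.63 in those of Yap-shRNA. Psmb6 held 11.5, 15.7 and 13.1 against 13.0, 11.2 and 13.3. Psmb9 was lower in every library, by a mean log2 ratio of -1.89 ± 0.32 (SD, n = 6).

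Psmb10, which replaces Psmb7, held 9.79, 11.4 and 11.8 CPM per kb in the LacZ-shRNA libraries and 12.0, 12.6 and 12.9 in those of Yap-shRNA. Psmb7 held 8.93, 7.09 and 10.3 against 8.74, 8.67 and 9.19. Psmb10 was higher in every library, by a mean log2 ratio of 0.42 ± 0.21 (SD, n = 6). Each of these 3 ratios gave p = 0.0312 in a two-sided exact sign-flip permutation test over 6 libraries, and 0.0312 adjusted over the 3 pairs. It is the smallest p the test can give. This p measures how steadily a ratio recurs over libraries, and pools of both groups may come from the same mice.

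Other measures of length moved these ratios, and the order turned in 1 pair. Psmb5 shares 38.6% of its window with Mir686, and dividing by the unshared length alone, a choice made after seeing the data, turned the first ratio to -0.15 (adjusted exact permutation p = 0.219). Psmb9 shares 46.8% of its window with Tap1, so its low window level against Psmb6 is uncertain as well. The Psmb9 peak spans both starts. Per kb of peak, also a choice made after seeing the data, the ratio of Psmb9 over Psmb6 was -0.79 and that of Psmb10 over Psmb7 0.53 (adjusted exact permutation p = 0.0312 for each). By counts of whole peaks, which differ in width (1739 bp for Psmb9 and 1181 bp for Psmb6, 1046 bp for Psmb10 and 599 bp for Psmb7), they were -0.24 and 1.33 (adjusted exact permutation p = 0.312 and 0.0625).

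Psmb8 had a level above the protein-coding median without a peak of its own. Its window lay at 8.28 CPM per kb, percentile 74.5 of protein-coding windows, and the nearest peak began 2461 bp from its nearest start, beyond the gene's 3′ end and at the promoter of Tap2. The Psmb9 peak, at chr17:34186513-34188251, spans the starts of Psmb9 and Tap1, which are transcribed away from each other. Tap1 and Tap2 encode the transporter that carries proteasome products into the endoplasmic reticulum.

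The effect of Yap knockdown was then asked of each gene. In windows, 0 of 46 proteasome genes passed an adjusted p of 0.05 in edgeR's quasi-likelihood test, against 0.0223% of all windows. An unadjusted p under 0.05 was reached by 1 of the 46 (2 by the likelihood-ratio test and 0 by DESeq2 and by voom), against 4.9% of all windows. The log2 fold change, Yap-shRNA against LacZ-shRNA, was above 0 in 26 and below in 20, with a median of 0.03. Of all windows 47.3% were above 0. The closed Olfr windows had a median of -0.15, with 22.2% above 0, and the bearing of this background on other windows was not tested. The groups did not overlap in 3 windows (Psma4, Psma7 and Psmb10), against 10.1% of all windows.

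The constitutive subunits lay around 0. Of 30 windows, 14 were above and 16 below, with a median log2 fold change of -0.002, against -0.01 for all windows. An approximate 95% interval, taken from the SE with the normal distribution, lay within 0.5 of 0 on the log2 scale in 24 of the 30. Changes past that size were outside the interval at those windows. The interval is somewhat narrow. For Psmb9 it ran from 0.0076 to 0.68 and left out 0, although the unadjusted p was 0.052 in edgeR. Psmb5, Psmb6 and Psmb7 had log2 fold changes of 0.10 (SE 0.19), -0.09 (SE 0.14) and -0.03 (SE 0.16). The largest value, 0.81 (SE 0.46) at Psma4, rests on 63 counts, and the Psma4 peak gave 0.11 (SE 0.14).

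All 3 immunoproteasome windows had values above 0. Psmb8 held 27.1 ± 2.10 CPM in the LacZ-shRNA libraries and 33.1 ± 4.35 in those of Yap-shRNA (SD over 3 libraries each), with log2 fold change 0.29 (SE 0.15, unadjusted p = 0.0496, adjusted p = 0.946 by edgeR), which does not pass the test. Psmb9 had 0.34 (SE 0.17, adjusted p = 0.946 in edgeR) and Psmb10 0.18 (SE 0.14, adjusted p = 0.949 in edgeR). For Psmb8 and Psmb9 the lowest Yap-shRNA library lay below the highest LacZ-shRNA library, while for Psmb10 the groups did not overlap. Their median was 0.29, and it ran from 0.21 to 0.40 over the alternatives.

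**Figure D3:**
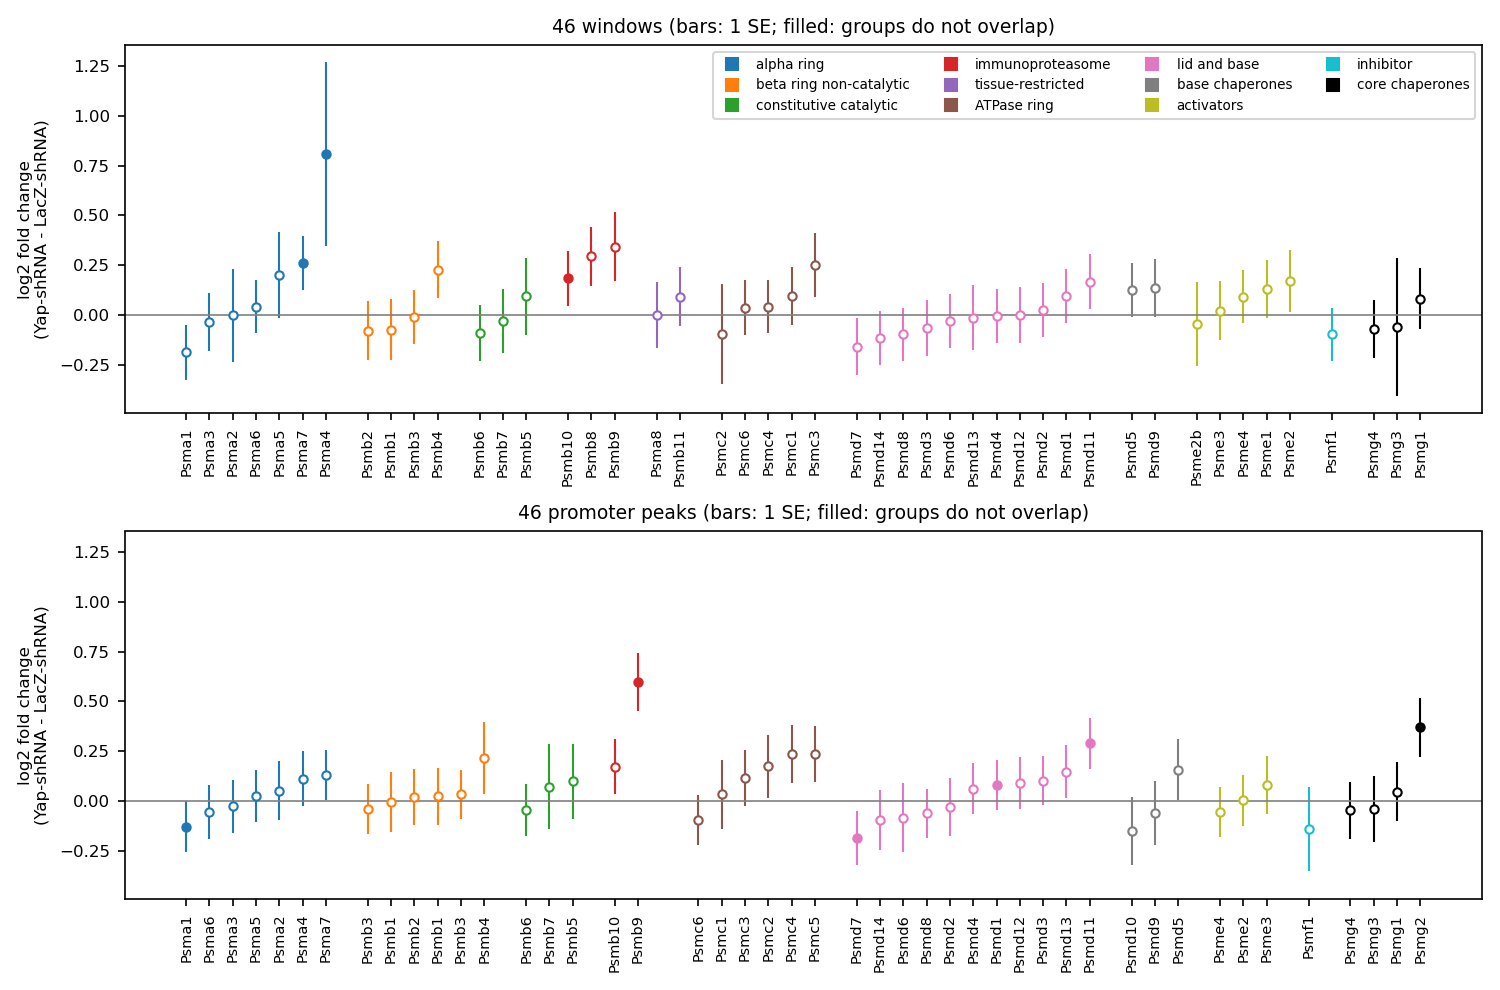
Log2 fold change, Yap-shRNA against LacZ-shRNA, with bars of 1 SE, for 46 windows (top) and 46 promoter peaks (bottom) by role, with filled circles where the groups do not overlap. The Psmb9 peak, at 0.60, is the one that passes the adjusted threshold.

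Of the 46 promoter peaks, 1 passed (0.618% of all 36097 peaks were called, and 0.0471% were called higher). It was the peak over Psmb9 and Tap1. It held 27.7, 22.1 and 30.6 CPM in the LacZ-shRNA libraries and 34.1, 43.2 and 48.0 in those of Yap-shRNA, so each Yap-shRNA library lay above each LacZ-shRNA library. The mean rose from 26.8 ± 4.35 CPM to 41.8 ± 7.04 (SD over 3 libraries each), with log2 fold change 0.60 (SE 0.14, adjusted p = 0.0335 by edgeR), and it was 1 of 17 called higher peaks. The call was kept in 6 of 14 alternative fits and lost in 8, DESeq2 (adjusted p = 0.0973) and voom (0.0592) among them, with adjusted p-values from 0.00405 to 0.313. Of those 8, 4 leave out a library: LacZ-shRNA replicate 1 (0.0813) or 2 (0.161) and Yap-shRNA replicate 2 (0.168) or 3 (0.313). Its log2 fold change without 1 library ran from 0.48 to 0.73.

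The windows of the genes on either side did not pass the test. Psmb9 had 0.34 and Tap1 -0.01 (SE 0.15) on the log2 scale. The peak spans both starts, and 46.8% of the Psmb9 window is shared with Tap1. The Psmb9 window held 805 counts against 1199 in the peak, so part of the reads of the peak is missing from it. These window values therefore do not show whether the change reaches beyond the peak. The Tap2 peak held 32.9, 50.5 and 25.0 CPM in the LacZ-shRNA libraries and 35.3, 33.6 and 43.5 in those of Yap-shRNA, with log2 fold change 0.13 (SE 0.16, adjusted p = 0.903 by edgeR), and its groups overlapped. Within this cluster of genes the change that passed the test was that of the shared Psmb9 and Tap1 peak.

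**Figure D4:**
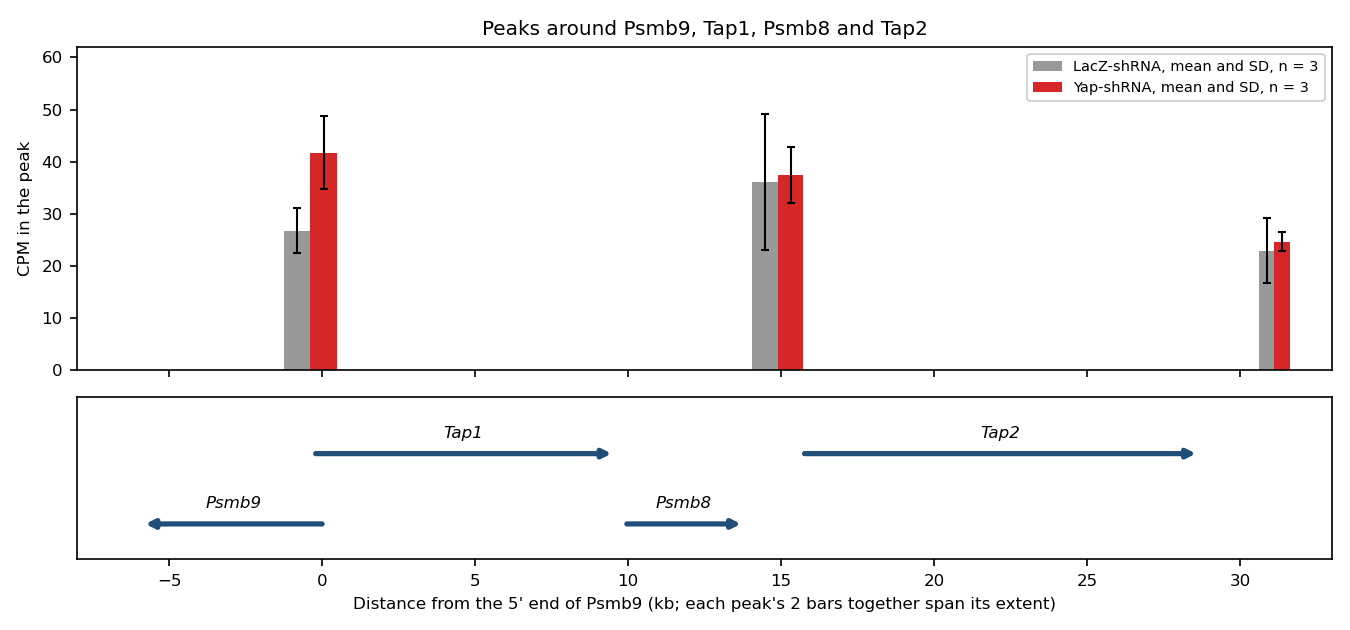
Peaks around Psmb9, Tap1, Psmb8 and Tap2 by distance from the 5′ end of Psmb9 in kb, with bars for mean CPM in the peak and SD (n = 3 per group) and arrows for the genes in their direction of transcription. The peak at the Psmb9 and Tap1 starts is at 26.8 CPM in the LacZ-shRNA libraries and 41.8 in those of Yap-shRNA, the peak before Tap2 at 36.1 and 37.5, and no peak lies over the start of Psmb8.

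The whole peak of 1739 bp over Psmb9 and Tap1 holds 2 ISRE matches, at chr17:34186995-34187003 and chr17:34187699-34187707, and none lies in its central 300 bases. When 1739 bp around each of 11297 promoter peak centres was searched, 36.3% held at least 1 match and 9.82% at least 2. The peak also holds 1 TEAD match, and 55.0% of the stretches of that length hold at least 1. The 300 bases at its centre (chr17:34187233-34187532) carry the SP1 and CCAAT box matches of the Psmb9 promoter printed above.

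Of the other proteasome peaks, 2 had an unadjusted p under 0.05 (8.9% of all peaks had one, and 3.59% were higher). Psmd11, a lid subunit, held 38.3, 38.6 and 50.5 CPM in the LacZ-shRNA libraries and 52.0, 51.0 and 56.4 in those of Yap-shRNA, with log2 fold change 0.29 (SE 0.13, adjusted p = 0.468 by edgeR). Psmg2, a core assembly chaperone whose peak is shared with Cep76, held 19.99, 20.8 and 25.3 against 25.8, 30.02 and 31.6, with log2 fold change 0.37 (SE 0.15, adjusted p = 0.392 by edgeR). Neither passes the adjusted test, although the groups did not overlap. That was so in 6 of the 46 peaks, against 12.4% of promoter peaks and 13.3% of all peaks, and Psma1 and Psmd7 were the 2 with lower values in Yap-shRNA. The Psmb10 peak held 27.1, 27.6 and 31.5 against 31.4, 33.9 and 33.2 CPM, with log2 fold change 0.17 (SE 0.14, adjusted p = 0.802 by edgeR).

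**Figure D5:**
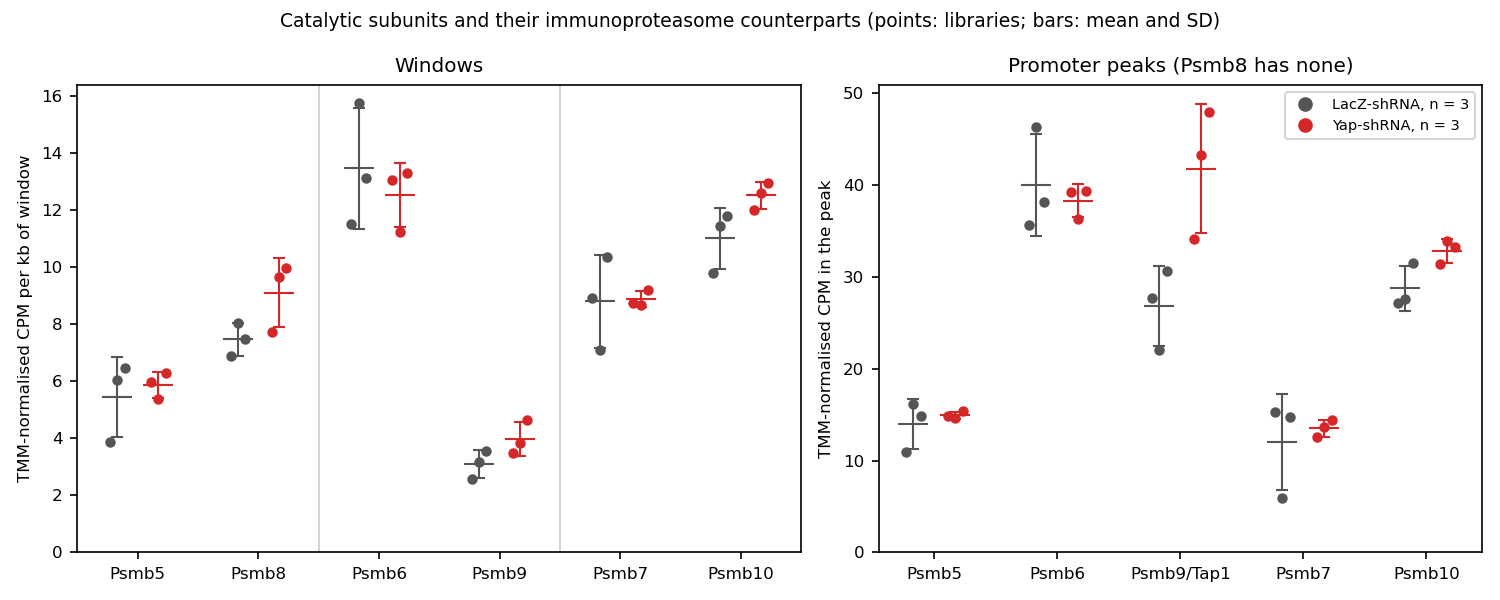
TMM-normalised CPM per kb of window (left) and CPM in the promoter peak (right) of the catalytic subunits beside the immunoproteasome subunits that replace them, with 1 point per library and bars for mean and SD (n = 3 per group). The groups lie apart for the Psmb9 and Tap1 peak and the Psmb10 window and overlap for the others.

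Within each library the ratio of an immunoproteasome window to the constitutive one does not depend on scaling. The log2 ratio of Psmb9 over Psmb6 was -2.12 ± 0.21 in LacZ-shRNA and -1.66 ± 0.22 in the Yap-shRNA group (SD, n = 3), a difference of 0.46 (two-sided exact permutation p = 0.20, adjusted over 3 pairs 0.60). For Psmb8 over Psmb5 the difference was 0.14 and for Psmb10 over Psmb7 0.16 (exact permutation p = 0.70 and 0.40). With 3 against 3 no p under 0.1 can be reached, so these differences cannot pass the threshold in this design.

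Genes that work with the immunoproteasome were examined as a list of 14, among them Tap1, Tap2, B2m (the light chain of MHC class I) and the interferon pathway factors Stat2, Irf1 and Irf9. The list has 15 promoter peaks, of which 14 had a log2 fold change above 0, against 57.1% of 11306 promoter peaks and 49.5% of all peaks. Their median was 0.16, against 0.027 for promoter peaks and -0.003 for all peaks. Only the peak shared by Tap1 and Psmb9 passed the adjusted test. An unadjusted p under 0.05 was reached by 7, all higher and that peak among them, against 4.49% of promoter peaks and 3.59% of all peaks. The list was chosen with earlier results of these data known, so its counts are a description and no independent support.

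B2m held 16.4, 14.4 and 14.3 CPM in the LacZ-shRNA libraries and 22.02, 22.2 and 24.1 in those of Yap-shRNA, with log2 fold change 0.60 (SE 0.16, adjusted p = 0.0815 by edgeR). Irf1, the interferon-responsive activator of Psmb9 and Tap1, held 20.8, 24.2 and 30.8 against 33.2, 38.4 and 34.4, with log2 fold change 0.45 (SE 0.14, adjusted p = 0.203 by edgeR). In both the groups did not overlap and neither passes the adjusted test. Nlrc5, Stat2 and Irf9 had log2 fold changes of 0.40, 0.38 and 0.35. In windows, 3 of the 14 genes had an unadjusted p under 0.05, all higher and B2m and Irf1 among them, against 1.9% of all windows, and 0 passed the adjusted test.

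In the other lists around the proteasome no window had an unadjusted p under 0.05. Over all windows the share was 4.9%, so lists this short would hold few at that share. Of 17 further proteasome genes with a window, among them the core maturation factor Pomp and the ubiquitin receptor Adrm1, 6 were above 0 and 11 below, and 0 had an unadjusted p under 0.05. Pomp had a log2 fold change of 0.06 (SE 0.14), Adrm1 -0.05 (SE 0.14) and the 19S subunit Sem1 -0.10 (SE 0.17). The 7 regulators divided into 3 above and 4 below, again with 0 at an unadjusted p under 0.05, and Nfe2l1 was at -0.14 (SE 0.14) with 184 ± 33.3 CPM in the LacZ-shRNA libraries and 167 ± 6.61 in those of Yap-shRNA (SD, n = 3). The 6 ubiquitin genes had 0 at an unadjusted p under 0.05 as well. For these 3 lists 0 of 34 peaks had an unadjusted p under 0.05, against 8.9% of all peaks.

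Marker windows of other cells are given beside these values, since immunoproteasome genes are also active in leukocytes. Of 10 leukocyte markers 9 had a window, 7 of them with a value above 0. Their summed level was 155 to 167 CPM in LacZ-shRNA and 176 to 183 in Yap-shRNA, without overlap, and none was at 0. Of the leukocyte markers 0 held a peak, but of the 8 muscle fibre markers only 3 did (37.5%). A missing peak therefore does not show that the nuclei of a cell type were absent. Ptprc (CD45), the common leukocyte marker, was near the Olfr level at 3.24 CPM per kb. Its log2 fold change was -0.30 (unadjusted p = 0.0674 in edgeR). Cd74 and Csf1r, at 0.45 and 0.32, had an unadjusted p under 0.05 in edgeR, against 4.9% of all windows. The part of leukocyte nuclei in the Psmb9 and Tap1 value was not tested.

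The 6 fibroblast markers summed to 168 to 200 CPM in LacZ-shRNA and 191 to 234 in Yap-shRNA, with overlap. Their log2 fold changes were above 0 in 3 and below in 3, and Col1a1 (0.39) and Col3a1 (0.34) had an unadjusted p under 0.05. Of 5 endothelial markers 3 were above 0 and 2 below. Kdr was among the lower, at -0.59 with an unadjusted p under 0.05. The 8 muscle fibre markers and the 2 satellite cell markers had 0 genes at an unadjusted p under 0.05. Over all windows the share was 4.9%, at which lists this short would hold few or none. Over these marker lists 0 windows passed the adjusted test, against 0.0223% of all windows.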

How the data were processed

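The authors mapped paired ATAC-seq reads to GRCm38 with BWA 0.7.17, removed duplicates with SAMtools 1.8, called peaks per sample with MACS 1.4.2-1, merged those found in more than 1 sample, and used featureCounts 1.5.0 for counting, per the labels and methods. The deposited values are raw counts per peak and per promoter window, in 2 tables. Offsets for the transposase cannot be seen in counts.

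A window was taken to reach 1 kb both ways from each start annotated in Ensembl 96, and peaks overlapping that reach by 1 bp or more were assigned to the gene. All windows and peaks were fitted with edgeR 4.0.16 (R 4.3.3): TMM factors, quasi-likelihood test, no covariate, all 6 samples, Benjamini-Hochberg adjustment over the whole table at 0.05. Levels are TMM-scaled CPM, divided by length in kb. Pairs of subunits were compared by exact permutation tests. The table already left out rows of low counts, and no further filter was set. Tested on simulated data, the test found 79% of 200 windows changed by 1 and 6% of those changed by 0.5 on the log2 scale, and 66.5% and 9.5% of peaks.

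All members may be named. Values per sample are given for the catalytic, immunoproteasome and tissue-restricted subunits, Psme1, Psme2, the highest and lowest gene of each role and those with an unadjusted p under 0.05. The members, roles, gene lists and motifs were chosen with earlier results of these data known. Alternatives were other tests (likelihood-ratio test, DESeq2 1.42.0 and voom in limma 3.58.1), other scalings, other filters, a replicate block and leaving out each sample. RefSeq sequences are of GRCm38.p6, and motif matches are exact. Values of some genes in the list of immunoproteasome partners are not reported here, although the counts over that list include all its members.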

Additional observations from a re-analysis of the deposited data

How the results depend on the processing

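The count of 0 called proteasome windows held in all alternatives, and the median of the constitutive windows (-0.077 to 0.082) and of the immunoproteasome windows moved by less than the spread between samples. The 1 called peak, over Psmb9 and Tap1, was lost (0 called) with DESeq2, voom, the loess offset and a mean count of at least 50, and 0 or 1 was called without 1 library. Over all windows, 11 calls became 33 under the likelihood-ratio test as under the loess offset, 20 in DESeq2, 23 in voom and 7 without the most abundant 1%, and 4 to 157 without 1 library (157 without LacZ-shRNA replicate 1, 5 and 4 without Yap-shRNA replicate 1 and 2). Over all peaks, 223 became 378 under the likelihood-ratio test, 116 in DESeq2, 143 with the loess offset and 136 at a mean of at least 50, and 94 to 447 without 1 library. The cause of these shifts was not tested. With library size alone the median of all peaks moved from -0.003 to 0.14, the higher share of called peaks from 17 of 223 to 124 of 229, and the Psmb9 and Tap1 peak stayed 0.60 above that median.

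Deviations from the group mean in same-numbered samples had correlations of 0.19, -0.12 and 0.09 in windows and 0.02, -0.09 and -0.14 in peaks. Between samples of different numbers they ran from -0.26 to 0.20 in windows and -0.035 to 0.14 in peaks. With 3 samples per group these values cannot show whether the pools were paired. The vectors went to opposite sides of the mice, but no source used here says whether same-numbered pools came from the same mice. The fit with the replicate block called 13 windows and 207 peaks, 0 proteasome windows and the same Psmb9 and Tap1 peak (log2 fold change 0.62), and left the pair differences at 0.14, 0.46 and 0.16.

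The ratios of Psmb8 over Psmb5, Psmb9 over Psmb6 and Psmb10 over Psmb7 ran from 0.50 to 0.63, -1.97 to -1.81 and 0.36 to 0.47 without 1 library, where 5 libraries allow no exact p under 0.0625. Psmb8 over Psmb5 turned to -0.15 on the unshared length. By counts of whole peaks, not divided by length, Psmb9 over Psmb6 was -0.24 and Psmb10 over Psmb7 1.33, and per kb of peak, added after seeing the data, they were -0.79 and 0.53. Both peak measures gave the latter a group difference of -0.095. No peak value exists for Psmb8, and the Olfr subtraction, added after seeing the data, left negative levels in 2 pairs and gave 0.60 for Psmb10 over Psmb7.

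Values near 0 changed sign among the named windows, none of them called in any alternative. Without 1 library the log2 fold changes ran from -0.071 to 0.095 for Psma8, -0.23 to 0.12 for Psmb1, -0.060 to 0.20 for Psmb11, -0.13 to 0.11 for Psmb3, -0.11 to 0.30 for Psmb5, -0.18 to 0.018 for Psmb6, -0.13 to 0.12 for Psmb7, -0.25 to 0.044 for Psmc2, -0.032 to 0.10 for Psmc4, -0.10 to 0.12 for Psmd12, -0.080 to 0.099 for Psmd13, -0.0090 to 0.30 for Psmd9, -0.035 to 0.24 for Psme1, -0.155 to 0.042 for Psme2b, -0.25 to 0.036 for Psmg3 and -0.18 to 0.076 for Psmg4. With library size alone Psmb3, Psmb7, Psmd13 and Psme2b were at 0.056, 0.030, 0.050 and 0.016. Psma8 was at -2.62e-05 (DESeq2), -0.0027 (voom), -0.020 (loess), -0.0042 (mean of at least 50), -0.0015 (without the top 1%) and -0.0029 (block). Psmd12 was at -3.08e-05 (likelihood-ratio test), -0.0039, -0.019, -0.0082 and -0.0048 under the likewise ordered DESeq2, loess, mean and top 1% settings. Voom gave 0.000675 for Psmb3 and 0.0066 for Psmd13, and the block 0.0028 for Psmb3 and 0.0044 for Psmb7.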
